A study of Mus musculus with 6 samples.

Results

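The 32 genes described here are induced in neurons by electrical or hormonal activity. They were chosen by symbol from a list of known immediate-early and activity-induced genes, and all 32 were found among the 78298 gene rows of the deposited brain table. Of the 32 genes, 26 are fast genes, most of them transcription factors and regulators of signalling, and 6 (Homer1, Bdnf, Nptx2, Scg2, Inhba and Nrn1) were set apart as delayed genes. Each of the 32 passed the filter on low values, a mean of at least 10 normalised counts over the 6 libraries, which uses no group.

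Polyadenylated RNA from the left brain of male mice was sequenced, with 1 library per mouse, 3 wild-type mice and 3 mice homozygous for the Top2b-low allele. Top2b encodes topoisomerase II beta, the enzyme that relieves torsional strain in the DNA of neurons by cutting and rejoining both strands. The allele carries an auxin-inducible degron (AID) tag that CRISPR/Cas9 placed at the start of the coding sequence, at its 5′ end, and no tissue-specific driver is named. No compound was given to either genotype, all mice were under isoflurane before death, and the labels give 10 weeks of age in the protocols but 3.5 months in the study design. The comparison asks what a lasting reduction of Top2b does to expression in the adult brain.

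Immediate-early genes are transcribed within minutes of neuronal firing from promoters that are already poised, through calcium and cAMP signals to CREB and through MAP kinase signals to serum response factor. The first wave encodes transcription factors such as FOS, EGR1 and NPAS4, and some proteins that act at the synapse, such as ARC. A later wave encodes secreted and structural proteins, including BDNF, and the transcripts of the first wave decay quickly. In cultured neurons topoisomerase II beta has been reported to cut the promoters of several early genes on stimulation. In tissue taken without a set stimulus these transcripts are known to vary with what an animal did, and how it was handled, before death.

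The label of whole left brain was checked against marker genes, and 3 libraries stood apart from the others. The library names of wild-type replicate 3 and Top2b-low replicate 3 contain N22, a term the labels do not explain. In those 2 libraries all 12 cerebellar granule and Purkinje cell markers passed the test as lower. Gabra6, a granule cell receptor subunit, had 0.711 and 0.592 normalised counts there against 2020.3 to 2348 in the other 4. Hox genes, which mark hindbrain, had 0 counts there for 7 of 8 genes. Top2b-low replicates 2 and 3 were almost without hypothalamic markers. Hypothalamic markers summed to 132 and 104 normalised counts in those libraries, against 1234 in Top2b-low replicate 1 and 1343 to 2272 in wild type. Pan-neuronal markers summed to 135841 to 146886 in all 6 libraries. In these bulk samples, fewer cells of a type and less RNA per cell cannot be told apart. The libraries held 16963067 to 35246703 reads, and the N22-named libraries were the deepest with 28629911 and 35246703. The name of Top2b-low replicate 3 ends in dNdN where those of the other Top2b-low libraries end in Homo, which the labels do not explain either.

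Top2b itself (ENSMUSG00000017485) had normalised counts of 3160.4, 3014 and 2485 for wild type against 2152, 2314 and 1965 for Top2b-low, and every Top2b-low library lay below every wild-type library. The means were 2886 ± 355 (SD, n = 3) in wild type and 2144 ± 175 (SD, n = 3) in Top2b-low, a log2 difference of -0.42 ± 0.11 (SE). In limma this had an unadjusted p of 0.00629 and an adjusted p of 0.99997. With a term for the N22 name the adjusted p was 0.224 in limma, 0.225 in edgeR and 2.7e-05 in DESeq2. Without that term DESeq2 gave an adjusted p of 0.99999. Top2b also differed with the N22 name, by a log2 difference of -0.25 ± 0.06 (SE) with an adjusted limma p of 0.0161. Transcript remained in all Top2b-low brains, so any reduction at the RNA level was partial.

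Sequence upstream of 4 genes is shown because these had the smallest p-values among the 32, Scg2 and Npas4 for genotype and Dusp5 and Nr4a3 for the N22 name. Each is the 250 bases before the RefSeq transcription start in mouse build GRCm38.p6, 5′ to 3′ on the strand of the gene. Capitals mark the cAMP response element (CRE, TGACGTCA), its half-site (TGACG or CGTCA, which the full element contains) and the CArG box bound by serum response factor.
Scg2, chr1:79440027-79440276, minus strand: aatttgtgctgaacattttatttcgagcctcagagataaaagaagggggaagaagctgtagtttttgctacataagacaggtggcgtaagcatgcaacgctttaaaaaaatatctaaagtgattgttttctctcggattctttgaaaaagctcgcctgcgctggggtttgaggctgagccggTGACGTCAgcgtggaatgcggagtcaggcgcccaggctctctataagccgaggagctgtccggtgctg
Npas4, chr19:4989972-4990221, minus strand: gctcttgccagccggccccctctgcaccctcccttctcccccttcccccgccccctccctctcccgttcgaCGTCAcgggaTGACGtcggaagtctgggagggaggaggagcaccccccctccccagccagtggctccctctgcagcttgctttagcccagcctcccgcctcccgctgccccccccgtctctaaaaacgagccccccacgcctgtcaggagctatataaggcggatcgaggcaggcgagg
Dusp5, chr19:53528895-53529144, plus strand: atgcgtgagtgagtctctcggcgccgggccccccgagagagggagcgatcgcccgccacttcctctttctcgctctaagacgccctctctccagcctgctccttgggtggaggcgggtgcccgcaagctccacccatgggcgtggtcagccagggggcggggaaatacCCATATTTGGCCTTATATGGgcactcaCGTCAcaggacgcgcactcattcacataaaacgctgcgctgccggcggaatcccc
Nr4a3, chr4:48045055-48045304, plus strand: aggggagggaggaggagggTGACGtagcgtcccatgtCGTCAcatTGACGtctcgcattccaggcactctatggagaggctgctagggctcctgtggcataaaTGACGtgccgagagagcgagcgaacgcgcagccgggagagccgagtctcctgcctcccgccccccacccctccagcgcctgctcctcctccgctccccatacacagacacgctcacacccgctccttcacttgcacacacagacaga
The Scg2 window holds a full CRE 68 to 61 bases before the start. The Npas4 window holds 2 half-sites of opposite direction, 179 to 175 and 169 to 165 bases before the start. Dusp5 has 2 adjoining CArG boxes, 82 to 73 and 72 to 63 bases before the start, and a half-site at 55 to 51. Nr4a3 has 4 half-sites, between 231 and 143 bases before its start.

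Windows for 24 of the 32 genes were matched by symbol, and the motif searches covered 32536 windows of 250 bases. Egr1, Egr3, Arc, Nptx2, Nrn1, Sik1, Trib1 and Ier2 had no window. The half-site TGACG, searched on both strands, was present for 17 of the 24 genes (70.8%) and in 20 of their 37 windows (54.1%), against 17.9% of all windows. The full CRE was present for 4 genes (Btg2, Dusp1, Maff and Scg2, 16.7%) and in 10.8% of the 37 windows, against 1.56% of all windows. The CArG box was present for 2 genes (Dusp5 and Egr2, 8.33%) and in 13.5% of the 37 windows, against 1.48% of all windows. TATAAA, searched on the gene's strand only, was found for 3 genes (Fos, Gadd45b and Inhba, 12.5%). It was in 8.11% of the 37 windows, close to the 7.55% of all windows. The AP-1 site TGACTCA was found in 0 of the 37 windows against 4.45% of all windows. The EGR site GCGTGGGCG was found for Maff alone, in 2.7% of the 37 windows against 0.541% of all windows. Both were searched on either strand. Windows of the 24 genes had a median GC content of 61.2% against 52.4% for all windows. Some genes have several windows that overlap, and these shares are descriptions with no test.

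Levels per exon length differed widely among the 32 genes. Scg2, which encodes the granule protein secretogranin II, had the highest mean at 119.6 RPKM (reads scaled by exon length in kilobases and by library total). Nrn1, encoding the membrane-anchored growth protein neuritin, followed with 67.5, then Egr1 with 52.1 and Arc with 50.1. Maff, a small Maf factor, was the lowest with 0.511. On this scale Fos stood at 13.6 and Npas4 at 4.42.

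The 32 genes varied more between libraries than most genes did. After genotype and the N22 name were accounted for, their median residual SD was 0.23 on the log2 scale, against 0.12 for all 17391 tested genes and 0.11 for the 14432 tested genes within the same range of mean counts. The residual SD of 30 of the 32 lay above the all-gene median. The highest library exceeded the lowest at least 2-fold in 17 of the 32 genes, and by 6.11-fold in Egr2, 4.54-fold in Arc and 4.33-fold in Fos. Delayed genes spanned less, with a median range of 0.58 on the log2 scale against 1.24 for fast genes and 0.48 for all tested genes.

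Wild-type replicate 3 was the lowest library for 24 of the 32 genes (75.0%), 22 of them fast, whereas it was the lowest for 20.6% of all tested genes. Fast genes there had a median log2 deviation of -0.62 from the mean of the 6 libraries, and Top2b-low replicate 3, the other N22-named library, was at -0.19. Wild-type replicate 2 (0.36) and Top2b-low replicates 2 (0.35) and 1 (0.24) were high, and wild-type replicate 1 (0.02) was in between. The delayed genes did not follow this order, with medians from -0.13 in wild-type replicate 3 to 0.14 in Top2b-low replicate 3.

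**Figure D1:**
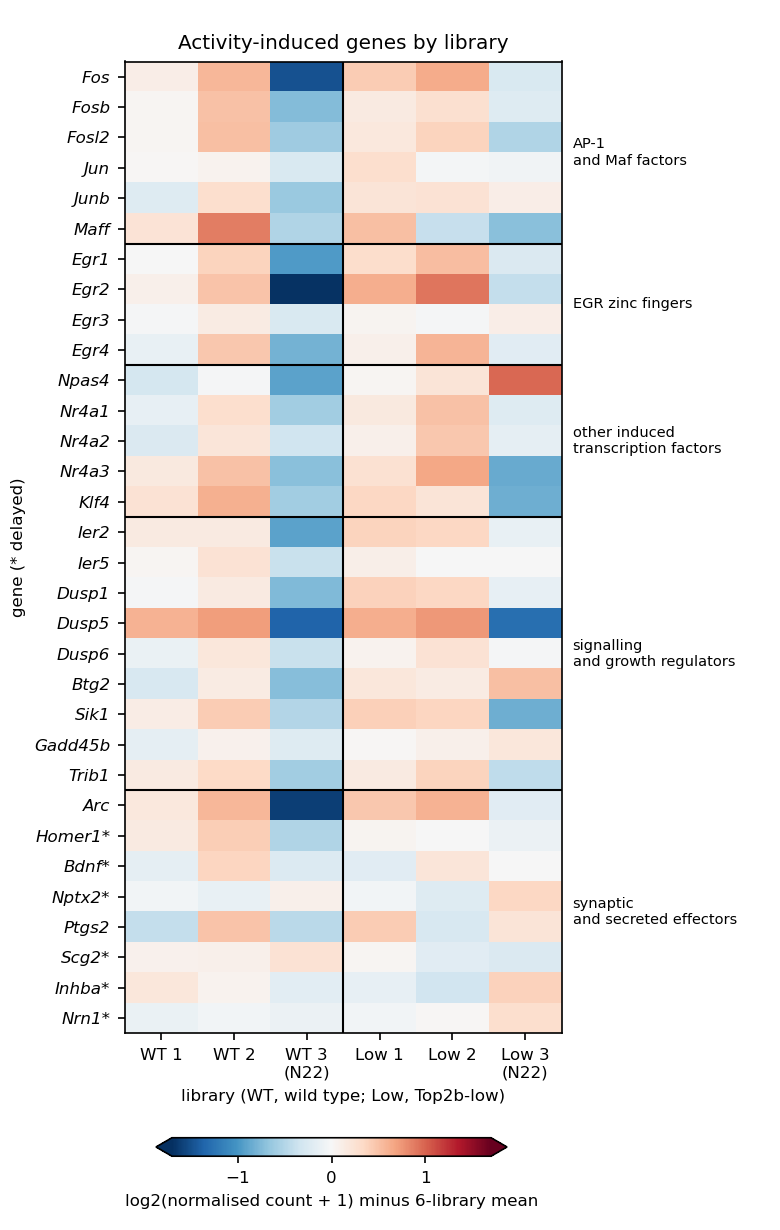
Log2 deviation of each of the 32 genes (rows, grouped by role, asterisk for delayed) from its mean over the 6 libraries (columns); blue is below and red above the mean. The column of wild-type replicate 3 is the lowest of the row for 24 of the 32 genes.

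**Figure D2:**
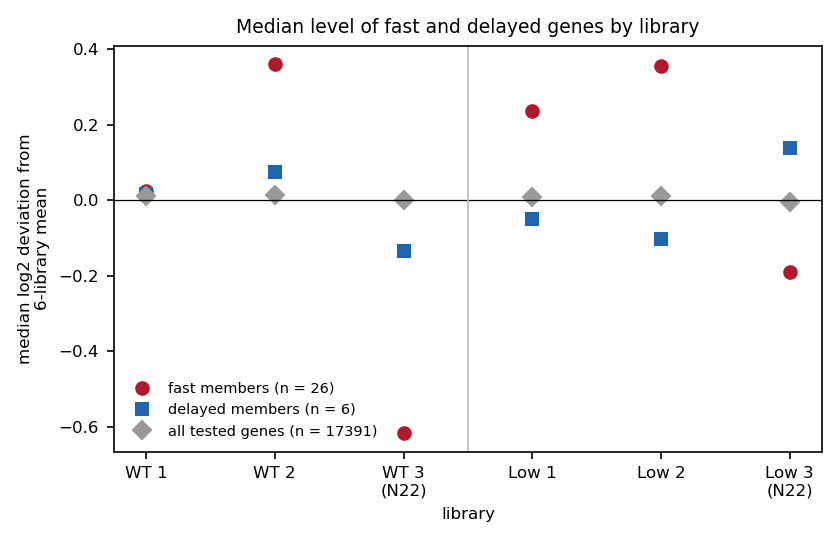
Median log2 deviation from the 6-library mean (y axis) for the 26 fast genes, the 6 delayed genes and all 17391 tested genes in each library (x axis). Fast genes range from -0.62 in wild-type replicate 3 to 0.36 in wild-type replicate 2, while the medians of all genes stay near 0.

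Genotype was compared first, with 3 Top2b-low against 3 wild-type libraries. None of the 32 genes passed the test in limma (Benjamini-Hochberg adjusted p below 0.05), as for 0% of the 17391 genes tested higher and 0% lower. At an unadjusted p below 0.05, 3 of the 32 stood out, namely Npas4 and Btg2 with higher and Scg2 with lower values in Top2b-low, against 1.51% of all genes. The same 3 genes had groups that did not overlap, 2 of 32 upward (background 2.70%) and 1 of 32 downward (background 3.04%). DESeq2 and edgeR also called 0 of the 32, with 3 each at an unadjusted p below 0.05. That count was 1 to 6 in limma when 1 library was left out, with 6 without wild-type replicate 2 and 1 without either N22-named library, and 1 without the intensity trend.

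Point estimates were above 0 in 26 of the 32 genes, with a median log2 difference of 0.15, while 49.4% of all genes were above 0 with a median of -0.002. The fast genes contributed 23 of 26 with a median of 0.22, and the delayed genes 3 of 6 with a median of -0.02. Without wild-type replicate 3 alone, which leaves Top2b-low replicate 3 as the only N22-named library, 15 of 32 genes were above 0 and the median was -0.01. With a term for the N22 name and the same library left out, that term takes up Top2b-low replicate 3. The genotype estimates are then those of the 4 libraries outside N22, given below. In the fits with no N22 term, the median was 0.32 without wild-type replicate 2, 0.30 without Top2b-low replicate 3 and 0.10 without Top2b-low replicate 1. Leaving out the 2 Top2b-low libraries poor in hypothalamic markers gave a median of 0.28, with 28 of 32 above 0. The 4 libraries outside N22 gave a median of 0.09 with 22 of 32 above 0. Across the 3 libraries with both cerebellar and hypothalamic markers, of which 1 is Top2b-low, the median was 0.03 with 18 of 32 above 0. Forebrain excitatory neuron markers were above 0 for genotype in 12 of 12 genes with 0 called, and summed to 69984 to 92663 in wild type and 83417 to 110836 in Top2b-low. Striatal markers were above 0 in 7 of 8 genes, and pan-neuronal markers in 4 of 8. Below 0 were 9 of 9 tested hypothalamic, 5 of 5 tested hindbrain, 10 of 12 cerebellar and 7 of 8 oligodendrocyte markers, with 0 called. Of the glucocorticoid response genes, 9 of 10 were below 0, with sums of 9414 to 13210 in wild type and 7618 to 10466 in Top2b-low. The part of these lists in the genotype values was not tested.

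Npas4 encodes a transcription factor induced by neuronal calcium entry and by few other signals. Its normalised counts were 288, 348 and 189 for wild type against 362, 414 and 700.5 for Top2b-low. The 3 Top2b-low values lay above the 3 wild-type values, and the gap was carried mostly by the N22-named pair, where the wild-type library was the lowest and the Top2b-low library the highest of the 6. The log2 difference was 0.82 ± 0.30 (SE), with an unadjusted limma p of 0.0273 and an adjusted p of 0.99997. Outside N22 it was 0.29. The two-sided exact permutation p was 0.1 for each of the 3 genes without overlap, the smallest that 3 against 3 libraries can give.

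Btg2, an antiproliferative gene induced by many stimuli, counted 300.0, 399 and 218 for wild type against 413, 399 and 514 for Top2b-low. Wild-type replicate 2 and Top2b-low replicate 2 were nearly level at the edge of their groups, and Top2b-low replicate 3 was the highest. The log2 difference was 0.57 ± 0.22 (SE), with an unadjusted p of 0.0353 and an adjusted p of 0.99997 in limma.

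Scg2 had 6597, 6659 and 7403 for wild type against 6419.7, 5479 and 5286 for Top2b-low. Its highest library was wild-type replicate 3 and its lowest were Top2b-low replicates 2 and 3, the libraries almost without hypothalamic markers. The log2 difference was -0.27 ± 0.10 (SE), with an unadjusted p of 0.0251 and an adjusted p of 0.99997 in limma. Without those 2 libraries it was -0.10, and without the wild-type N22 library as well it was -0.05. The part of hypothalamic content in the Scg2 values was not tested.

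**Figure D3:**
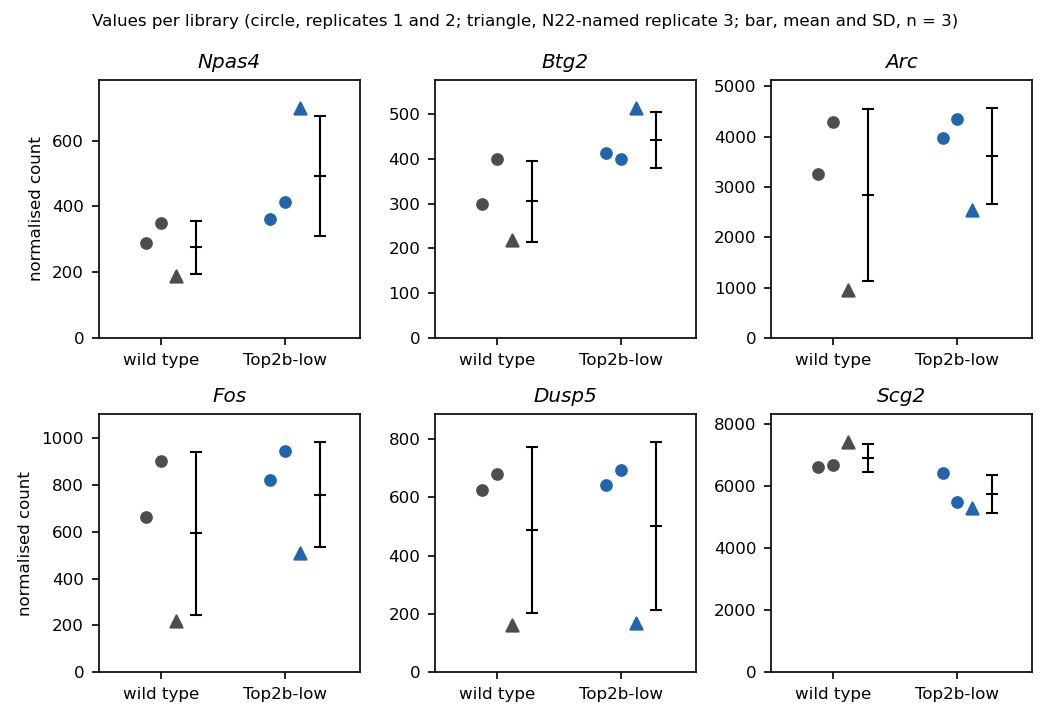
Normalised counts (y axis) of 6 genes in wild-type and Top2b-low libraries (x axis); circles are replicates 1 and 2, triangles the N22-named replicate 3, and bars the mean and SD of 3 libraries. Groups do not overlap for Npas4, Btg2 and Scg2, and both triangles lie below all circles for Arc, Fos and Dusp5.

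Among AP-1 and Maf factors, 5 of 6 estimates were above 0 for genotype with 0 called. Junb had 794, 1129 and 596 for wild type against 1077, 1096 and 1006 for Top2b-low, a log2 difference of 0.38 ± 0.21 (SE). Fos had 662, 902 and 218 for wild type against 821, 943 and 510.0 for Top2b-low. For both genes wild-type replicate 2 lay among or above the Top2b-low values, and wild-type replicate 3 was the lowest of all. Jun, the main partner of FOS in AP-1, had 1240.1, 1271 and 1026 for wild type against 1484, 1193 and 1168 for Top2b-low, with overlapping groups and a difference of 0.12 ± 0.13 (SE). For Fos the difference of 0.53 ± 0.50 (SE) had a 95% interval of -0.65 to 1.71 that reached to both sides of 0.

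All 4 EGR zinc finger genes, whose proteins carry the signal on to later target genes, had estimates above 0 with 0 called. Egr2 counted 175, 229 and 50.5 for wild type against 251, 308 and 123 for Top2b-low. Egr1 counted 4643, 6085 and 2399 for wild type against 5739, 6745 and 3941 for Top2b-low. In both genes the 2 Top2b-low libraries outside N22 were high and the wild-type N22 library was the lowest, yet wild-type replicate 2 overlapped the Top2b-low group. The log2 difference was 0.74 ± 0.58 (SE) in Egr2, 0.39 ± 0.34 (SE) in Egr1 and 0.31 ± 0.32 (SE) in Egr4, with errors that ignore the replicate numbers. With the numbers as a block the unadjusted limma p-values were 0.00162 for Egr2, 0.00237 for Egr1 and 0.014 for Egr4, and the adjusted ones 0.44, 0.473 and 0.602. Correlations between libraries do not bear out replicates 1 and 2 as separate blocks. Egr4 counted 404, 604 and 252 for wild type against 468, 657 and 386 for Top2b-low with overlapping groups, and Egr3 differed by 0.09 ± 0.11 (SE).

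The NR4A orphan nuclear receptors are induced by both calcium and cAMP. Nr4a2 had 771, 1046 and 717 for wild type against 965, 1247 and 819 for Top2b-low, and Nr4a1 had 1545, 2074 and 1134 for wild type against 1911, 2395 and 1462 for Top2b-low. Both genes were highest in Top2b-low replicate 2 with overlapping groups, and their log2 differences were 0.26 ± 0.19 (SE) and 0.29 ± 0.25 (SE). Nr4a3 and Klf4 differed by 0.04 ± 0.43 (SE) and -0.17 ± 0.40 (SE).

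The signalling and growth regulators had 8 of 9 estimates above 0 with 0 called. Dusp1, a phosphatase that switches off MAP kinases, counted 646, 728 and 389.7 for wild type against 864, 839 and 598 for Top2b-low. The 2 Top2b-low libraries outside N22 lay above all 3 wild-type libraries, while Top2b-low replicate 3 lay below wild-type replicates 1 and 2. Its log2 difference was 0.41 ± 0.25 (SE). Gadd45b, which encodes a stress and demethylation factor, counted 183, 216 and 176 for wild type against 207, 216 and 234 for Top2b-low, a difference of 0.20 ± 0.13 (SE) with groups that overlapped only at wild-type replicate 2. Ier2, Ier5, Dusp5, Dusp6, Sik1 and Trib1 had estimates from -0.04 to 0.40 with overlapping groups.

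Effector genes had 5 of 8 estimates above 0 with 0 called. Arc, which encodes a synaptic protein that removes AMPA receptors from the membrane, counted 3262, 4288 and 957 for wild type against 3972, 4349.7 and 2537 for Top2b-low. Top2b-low values lay inside the range of wild type except for Top2b-low replicate 2, and the log2 difference was 0.57 ± 0.52 (SE). Nrn1 counted 2931, 3077 and 2971 for wild type against 3060.3, 3218 and 3858 for Top2b-low, with groups that overlap only at the lowest Top2b-low value and a difference of 0.17 ± 0.10 (SE). Homer1, Bdnf, Nptx2, Ptgs2 and Inhba had estimates from -0.05 to 0.25.

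When a term for the N22 name was added, the estimates stayed as they were and the errors shrank. At an unadjusted p below 0.05 there were then 12 of the 32 genes (11 higher, 1 lower), against 5.81% of all genes, and 0 of the 32 passed after adjustment, as for 0% of all genes in either direction. The smallest p-values were those of Dusp1 (0.000684) and Egr2 (0.00218), both with an adjusted p of 0.568 in limma. DESeq2 with the same term gave Dusp1 an adjusted p of 0.0986, also short of the threshold. The count of 12 was 3 when the error model left out the intensity trend (5.51% of all genes), 8 without wild-type replicate 1 and 18 without wild-type replicate 2. It was 5 without wild-type replicate 3 and 4 without Top2b-low replicate 3. Both of these fits take their genotype estimates from the same 4 libraries outside N22, so they are not separate checks. With the replicate number as a block, 15 of the 32 had an unadjusted p below 0.05, against 6.72% of all genes, and 0 were called. Of the 32 genes, 15 were higher in Top2b-low in all 3 numbered pairs (46.9%, against 14.0% of all genes), among them Fos, Egr1, Egr2, Egr4, Arc, Dusp1, Nr4a1 and Nr4a2. All 32 genes were measured in the same 6 libraries, and 24 were lowest in wild-type replicate 3. The shares in this paragraph therefore do not count independent genes. Deviations from the group means in wild-type replicate 1 correlated at 0.369 with Top2b-low replicate 2 and at 0.33 with Top2b-low replicate 1. The values thus do not bear out replicates 1 and 2 as pairs, on which the block and the paired count rest.

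The N22-named libraries were then compared with the other 4, with genotype as a term. Of the 32 genes, 16 fell and 1 rose, against 16.7% of all tested genes that fell and 11.3% that rose. Fast genes made up 15 of the 16 that fell, out of 26, and the median log2 difference was -0.73 for fast genes, 0.07 for delayed genes and -0.005 for all genes. The N22-named libraries lay wholly below the other 4 for 18 of the 32 genes (background 26.5%) and wholly above for 1 (background 22.8%). Of the 17 calls, 10 held under every alternative run (Fos, Fosl2, Egr1, Egr2, Nr4a3, Klf4, Dusp1, Dusp5, Sik1 and Trib1). Without the intensity trend Fosb, Egr4, Nr4a1, Arc, Homer1 and Nptx2 were not called. Fosb, Egr4, Nr4a1, Ier2 and Homer1 were not called without wild-type replicate 3. Cerebellar markers summed to 4735 to 5362 in these 2 libraries against 30759.5 to 38789 in the other 4, 8 of 12 forebrain excitatory markers rose there, and 5 of 8 astrocyte markers fell. Their part in the fall of the activity-induced genes was not tested, nor was that of depth, which was higher in both N22-named libraries.

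Dusp5, a nuclear phosphatase of ERK, had the smallest p of the 32. It counted 161 and 170.4 in the N22-named libraries and 624 to 692 in the other 4, whose values hardly differed. The log2 difference was -1.98 ± 0.09 (SE), with an adjusted limma p of 3.5e-07. The transcript AC137853.2 shares 547 exonic bases with Dusp5 on the other strand, but its own counts were at most 14.6.

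Of the AP-1 genes, 3 of 6 fell. Fosl2 counted 949.8, 1325 and 614 for wild type against 1056, 1215 and 656 for Top2b-low. Fosb counted 349, 480.0 and 203 for wild type against 377, 410.3 and 289.9 for Top2b-low. In both genes and in Fos, whose counts are given above, the N22-named libraries lay below the other 4 without overlap. The log2 differences were -0.83 ± 0.12 (SE) for Fosl2, -1.30 ± 0.20 (SE) for Fos and -0.72 ± 0.15 (SE) for Fosb, with adjusted limma p-values of 0.000998, 0.00141 and 0.00707. Without wild-type replicate 3 the estimate was -0.79 for Fos and -0.44 for Fosb, and Fosb was then not called (adjusted p = 0.165). Jun, Junb and Maff were lower by estimate without passing the test, at -0.24, -0.39 and -0.91.

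Among the EGR genes Egr2, Egr1 and Egr4 fell, while the estimate for Egr3 was -0.11 with an adjusted p of 0.389. Egr2 counted 50.5 and 123 in the N22-named libraries against 175 to 308 elsewhere. This is a log2 difference of -1.57 ± 0.19 (SE), with an adjusted limma p of 0.000386. Egr1 differed by -0.90 ± 0.13 (SE) and Egr4 by -0.75 ± 0.18 (SE), with adjusted p-values of 0.000878 and 0.0125.

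Nr4a3, Klf4 and Nr4a1 fell among the other transcription factors. Nr4a3 counted 964, 1216 and 523 for wild type against 1031, 1355 and 474 for Top2b-low, with both N22-named values below every other library. Klf4, a zinc finger gene also expressed in vessel walls, counted 153, 196 and 84.6 for wild type against 165, 149 and 71.6 for Top2b-low. The log2 differences were -1.18 ± 0.13 (SE) for Nr4a3, -1.07 ± 0.14 (SE) for Klf4 and -0.60 ± 0.12 (SE) for Nr4a1, with adjusted limma p-values of 0.000167, 0.000678 and 0.00496. Endothelial markers summed to 4519 to 4919 in the N22-named libraries and 5321 to 5453 in the others, and their part in the Klf4 value was not tested. Npas4 did not follow the group, with 189 and 700.5 in the N22-named libraries and an estimate of 0.06. Its estimate depended on which N22-named library was kept, and it was -0.74 without Top2b-low replicate 3 (adjusted p = 0.0258, limma) and 0.85 without wild-type replicate 3 (adjusted p = 0.0101, limma). In each of those fits the N22 side is 1 library, assumed to vary like the other 4, from which all of the error comes.

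Among signalling regulators, Dusp5, Sik1, Trib1, Dusp1 and Ier2 fell. Sik1, a kinase that restrains CREB coactivators, counted 355, 436 and 229 for wild type against 431, 418 and 183 for Top2b-low. Trib1, a pseudokinase that directs protein degradation, counted 485, 550.2 and 288 for wild type against 481, 567 and 321 for Top2b-low. In both genes the N22-named libraries were the lowest of the 6 and close to each other. The log2 differences were -0.99 ± 0.12 (SE) and -0.77 ± 0.10 (SE), with adjusted limma p-values of 0.000432 and 0.000535. Dusp6, Ier5, Btg2 and Gadd45b had estimates from -0.29 to -0.02 that did not pass.

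Arc and Homer1 fell among the effectors, and Nptx2 rose. Arc differed by -1.34 ± 0.22 (SE) with an adjusted p of 0.00192 in limma, and its 2 N22-named values of 957 and 2537 were themselves far apart. Arc was not called without the intensity trend (adjusted p = 0.0568, limma). Homer1, which encodes a postsynaptic scaffold, counted 5008, 6035 and 3151 for wild type against 4669, 4469 and 4182 for Top2b-low, with a difference of -0.46 ± 0.13 (SE) and an adjusted p of 0.0239. Nptx2, encoding a secreted pentraxin that gathers AMPA receptors, counted 809, 763 and 880.4 for wild type against 806, 714 and 1064 for Top2b-low, and both N22-named libraries lay above the rest. Its difference was 0.33 ± 0.09 (SE) with an adjusted p of 0.0239, and it was called neither when genes with low values were kept nor when the error model ignored the level of expression, nor without Top2b-low replicate 3. Homer1 lost its call in DESeq2 (adjusted p = 0.166), in limma with low genes kept or without the intensity trend, and without wild-type replicate 1 or 3. Without wild-type replicate 3 the Homer1 estimate was -0.13 and that of Arc -0.71. Scg2, Nrn1, Bdnf, Inhba and Ptgs2 did not pass, with estimates from -0.18 to 0.16.

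**Figure D4:**
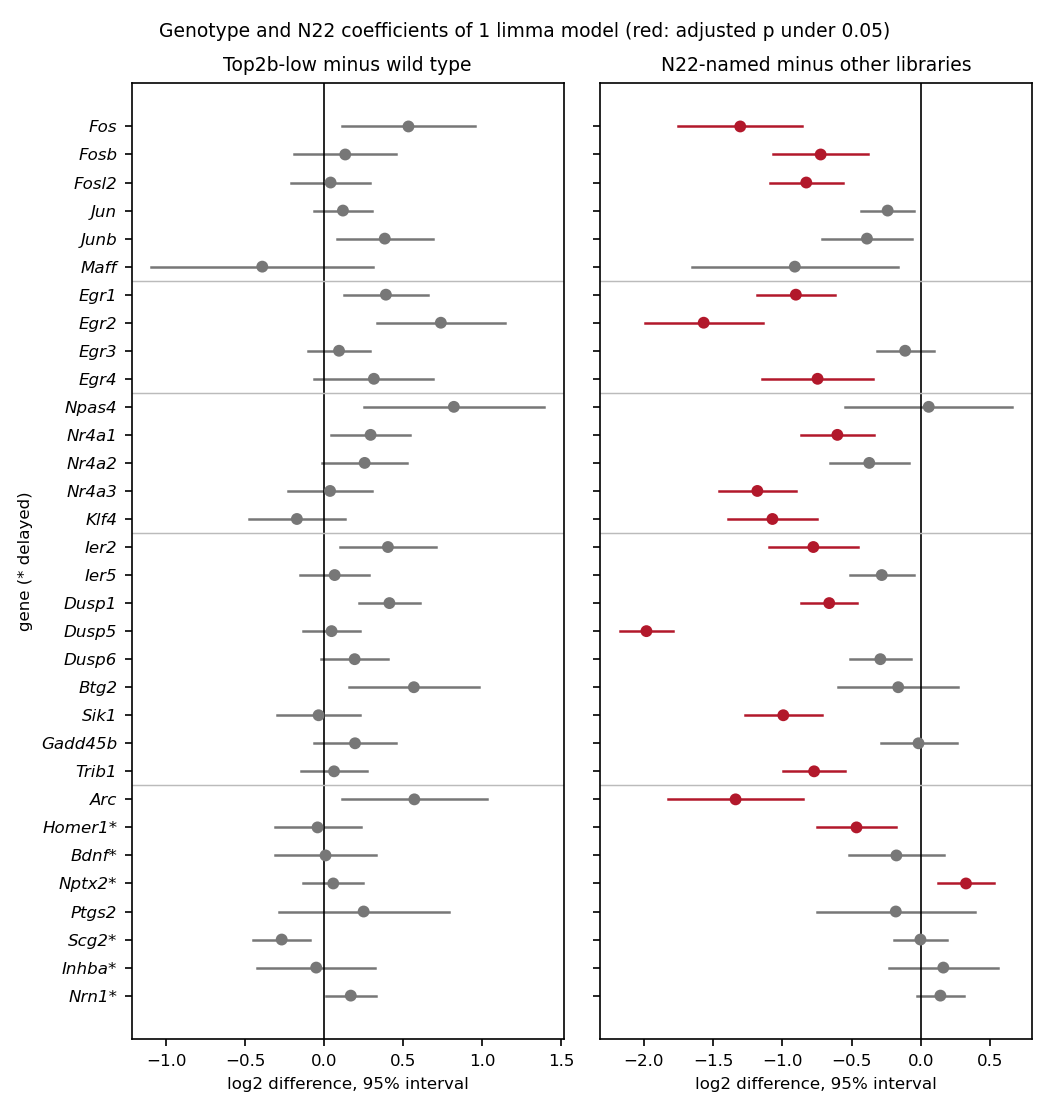
Log2 differences (x axis) with 95% intervals for the 32 genes (y axis) from 1 limma model with terms for genotype (left) and the N22 name (right), red where the adjusted p was below 0.05. No gene is red for genotype, and 16 genes are red below 0 and 1 above 0 for the N22 name.

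The last comparison asked whether the genotype difference was the same in the N22-named pair as in the other 4 libraries. It was larger by estimate in the N22-named pair for 27 of the 32 genes, with a median of 0.32 on the log2 scale against 0.01 over all genes. Limma and edgeR called 0 of the 32. In limma 0.00575% of all genes were called higher and 0.0173% lower. At an unadjusted p below 0.05 there were 13 of the 32, 12 higher and 1 lower, against 3.59% of all genes. With low genes kept this was 5 of the 32 (15.6%) against 17.1% of all genes, so the members then stood at the background, and without the intensity trend it was 7 of the 32 against 3.94%. The N22-named pair is 1 library of each genotype, so all its estimates share the same 2 libraries and the error comes only from the other 4.

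Npas4 and Arc had the largest values. The Top2b-low minus wild-type estimate for Npas4 was 1.88 in the N22-named pair and 0.29 in the other libraries, a log2 difference between them of 1.59 ± 0.23 (SE). For Arc the values were 1.41 and 0.15, and 1.25 ± 0.20 (SE) between them. The adjusted p was 0.106 for Npas4 and 0.189 for Arc in limma, and 0.0936 for Npas4 and 0.182 for Arc in edgeR. DESeq2 called both, with adjusted p-values of 0.00611 and 1.78e-05, where it called 0.0377% of genes higher and 0.0612% lower. Fos, Btg2, Homer1 and Inhba had estimates of 1.04, 1.00, 0.68 and 0.92. For Homer1 and Inhba the genotype difference had opposite signs, with -0.27 and -0.36 outside N22 and 0.41 and 0.57 within the pair. Fosb, Egr3, Ier5, Bdnf and Nptx2 were likewise below 0 outside N22 and above 0 within the pair. Nr4a3 and Sik1 went the other way, with 0.13 and 0.11 outside N22 and -0.14 and -0.32 within the pair. Dusp5 and Fosl2 differed little between the settings, by 0.05 and 0.08.

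**Figure D5:**
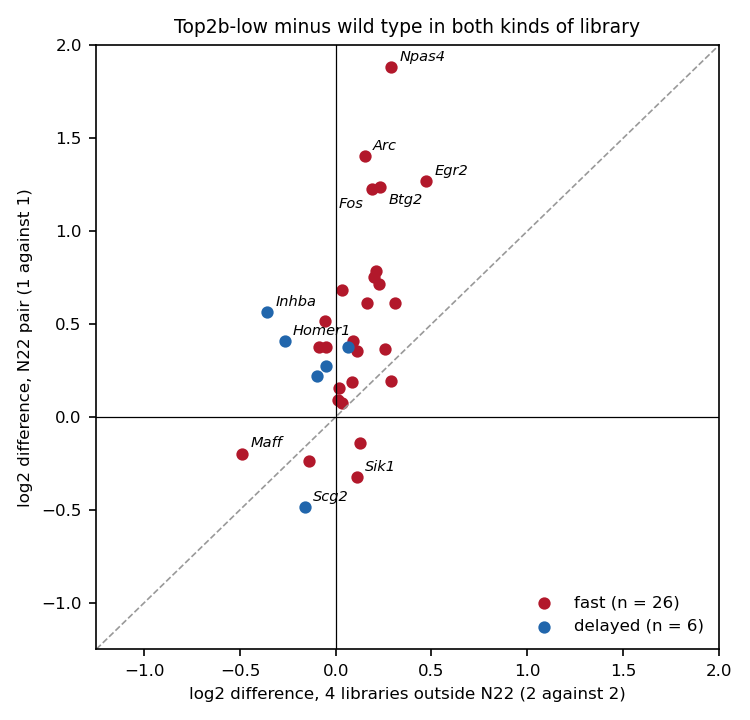
Log2 difference of Top2b-low from wild type in the 4 libraries outside N22 (x axis, 2 against 2) and in the N22-named pair (y axis, 1 against 1) for 26 fast and 6 delayed genes. Of the 32 points, 27 lie above the dashed line of equal differences, and Npas4 and Arc lie highest.

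Regulators that act upstream of these genes were examined next, as 20 genes that include CREB and its coactivators, serum response factor and its partners, MEF2 factors, MAP kinases and calcium-dependent enzymes. For genotype 16 of 20 were above 0 with 0 called. The smallest unadjusted p-values were those of Mef2c, an activity-regulated transcription factor, Crtc1, a CREB coactivator, and Camk4, a calcium-dependent kinase. Their log2 differences were 0.23, 0.12 and 0.19, with unadjusted limma p-values of 0.0728, 0.177 and 0.234. In the N22-named libraries 6 of 20 fell and 5 rose, against 16.7% and 11.3% of all tested genes. Crebbp, the CREB-binding acetyltransferase, differed by -0.55 ± 0.07 (SE) and Creb1 by -0.45 ± 0.07 (SE), while the kinase gene Map2k2 was higher by 0.37 ± 0.07 (SE). Their adjusted limma p-values were 0.000326, 0.00202 and 0.00372.

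A second list held 24 other genes known to be induced by activity, none of them among the 32. For genotype 13 of 24 were above 0 and 11 below with 0 called. Pcsk1, a prohormone convertase, had the smallest p, followed by Ccn1, a matricellular protein gene, and the neuropeptide precursor Vgf. Their log2 differences were -0.19, 0.51 and -0.22, with unadjusted limma p-values of 0.047, 0.0949 and 0.116. In the N22-named libraries 7 of 24 fell and 1 rose, beside the same 16.7% and 11.3% of all tested genes. Spry4, an inhibitor of receptor tyrosine kinase signalling, differed by -1.15 ± 0.15 (SE), Nfil3 by -0.80 ± 0.11 (SE) and Tiparp by -0.82 ± 0.11 (SE), with adjusted limma p-values of 0.00062, 0.000621 and 0.000824. The median N22 difference was -0.26 for these 24 genes, against -0.53 for the 32.

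Among the 32 genes, 6 overlap an exon of another gene on the opposite strand, and the strand setting of the counting was not given in the sources used here. Nrn1 shares 501 exonic bases with Fars2, which counted 209 to 418. Junb shares 173 with Prdx2, a gene at 2634 to 3380 normalised counts, and Bdnf 896 with Gm45346, at most 17.5. Jun overlaps Junos and Dusp1 overlaps Ergic1 by 11 bases. Reads of the partners could not be told apart in these stretches if strand was ignored.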

How the data were processed

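The deposited values are a signal: gene counts divided by a size factor per library (0.798 to 1.69), as their steps show, since no label describes the scaling. RSEM and genome build mm39 are named in the submitters' processing notes. Aligner, annotation, versions and strand setting were not given in the sources used here. In each library 100% of values came out as whole reads (tolerance 1e-06), which were used for edgeR 4.0.16 and DESeq2 1.42.0 as alternatives.

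Symbols came from GENCODE vM21 for 51498 gene IDs, which hold 99.4% to 99.5% of the reads of each library, and exon lengths came from the same annotation. Promoter windows came from the RefSeq table of GRCm38.p6, another build than that of the counts, and were matched by symbol only. The main test was limma 3.58.1 (R 4.3.3) with an intensity trend on log2(normalised count + 1) of genes with a mean of at least 10, Benjamini-Hochberg adjusted over 17391 genes, with a threshold of 0.05. Fold changes are on that scale, which understates changes of low genes. The scripts were tested on simulated data.

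Values per library are given for the 3 genes of each role with the smallest p for genotype and for the N22 name, and for genes whose genotype groups do not overlap. The 32 genes, the marker lists and the rules were chosen with earlier results of these data known. Replicates are separate mice, and replicate pairs of 1 genotype differed beyond sampling noise (chi-square per degree of freedom 4.16 to 39.3). The replicate numbers, which come from the sample titles, were taken as pairs in the block fits. That pairing was checked from the values only. Deviations of same-numbered libraries from their group means correlated at 0.33, 0.348 and 0.683, but wild-type 1 with Top2b-low 2 gave 0.369. Only the N22-named pair stood apart, so the values do not bear out replicates 1 and 2 as separate pairs.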

Additional observations from a re-analysis of the deposited data

How the results depend on the processing

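For genotype, 0 of the 32 genes were called under any alternative run, including edgeR, DESeq2, each library left out and the 2 sets of libraries chosen by regional markers after seeing the data. With the replicate block 0 of the 32 were called by limma, edgeR or DESeq2 and the median difference stayed at 0.15. The median ranged from -0.01 to 0.32 over the fits that left out 1 library. Over all genes, DESeq2 called 13 with the block and 21 with a term for N22, and limma called 64 with that term when Top2b-low replicate 1 was left out and 39 in the 3 libraries with both kinds of regional marker, a fit of 1 Top2b-low against 2 wild-type libraries, where limma on all libraries called 0.

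For the N22 name, the count of the 32 that fell was 11 to 20 when 1 library was left out, and the median was -0.76 to -0.43. The count that rose was 0 to 3 in the same fits, 0 without the filter on low values and 0 without the intensity trend. The estimate for Npas4 was -0.74 without Top2b-low replicate 3 and 0.85 without wild-type replicate 3, each from 1 N22-named library against 4 others, with all of the error from those 4. Over all genes the calls numbered 4864, but 2181 without the intensity trend, 1945 without wild-type replicate 3 and 1711 without Top2b-low replicate 3.

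For the difference between the N22-named pair and the rest, the count of the 32 called higher was 1 without the filter on low values (Ier2), when 4824 genes were called in place of 4, and 2 with DESeq2 (Npas4 and Arc), when 21 genes were called. The cause was not tested. The N22-named group has 2 libraries, so its estimates have little replication, and 3 libraries per genotype limit what the genotype test can call.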
